A study of Homo sapiens with 4 samples.

Results

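The genes described here are the numbered zinc finger genes of human chromosome 19: protein-coding genes whose symbol is ZNF followed by a number. Of 60651 gene rows in the stranded count table, 249 met that rule. Of these, 195 had 10 or more reads summed over the 12 libraries, 37 had 1 to 9 reads and 17 had none. The genes just inside that limit were ZNF534 with 10 reads, ZNF556 with 13 and ZNF610 with 14, and those just outside were ZNF714 with 8 and ZNF132, ZNF154 and ZNF256 with 7 each. The same name rule found 264 genes on other chromosomes, and chromosome 19 held 1180 further protein-coding genes.

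The libraries came from KP4, an established human pancreatic ductal adenocarcinoma line, and were made with a KAPA kit for mRNA. The 4 groups had 3 libraries each. E5 cells are KP4 cells that went through 5 cycles of treatment, and the series title calls the cells compared with the controls resistant to FOLFIRINOX. They were exposed for 96 h to FOLFIRINOX or to DMSO as vehicle, and control KP4 cells were given the same 2 exposures for the same time. FOLFIRINOX, a combination used against pancreatic cancer, was given here as 25 nM SN-38, the active product of irinotecan, with 10 µM of a compound written as 5-F and 5 µM oxaliplatin. The labels do not say whether the E5 cells given vehicle had their 5 cycles with FOLFIRINOX or with DMSO. Nor do they say whether the 3 libraries of a group came from separate cultures. All p-values therefore measure the spread between these libraries, which may be technical, and each kind of cell is 1 line.

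Most of these genes encode a KRAB domain followed by a row of C2H2 zinc fingers. The fingers read DNA, many of them in transposable elements, and the KRAB domain recruits TRIM28, which brings the histone methyltransferase SETDB1 and heterochromatin proteins to the bound site. The genes arose by repeated tandem duplication and lie in clusters along chromosome 19, where the protein ZNF274 binds the finger-coding exons of many of them.

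Translated from the reference transcripts, the 249 proteins held a median of 12 C2H2 finger matches, and ZNF208 held the most, with 36. A KRAB A-box pattern was found in 210 of them. A missing match says only that those letters were not found. ZNF473, for instance, has no match. The promoters of 5 genes on which the results below turn are printed here from RefSeq (GRCh38.p14), from 250 bases before to 50 bases after the annotated start. Capitals mark matches, on either strand, to the GC box GGGCGG, the CCAAT box, the TATA motif TATAAA, the ETS motif CCGGAAG, the YY1 motif GATGGCG, the CRE motif TGACGT and the E-box CACGTG. ZNF331 (chr19:53520764-53521063, plus strand), ZNF544 (chr19:58228664-58228963, plus strand) and ZNF583 (chr19:56403764-56404063, plus strand) are shown for their differences, the first 2 between E5 and control cells and the third in its drug response. ZNF296 (chr19:45076429-45076728, minus strand) had the largest rise with the drug in control cells, and ZNF146 (chr19:36214856-36215155, plus strand) was the most abundant.
ZNF331: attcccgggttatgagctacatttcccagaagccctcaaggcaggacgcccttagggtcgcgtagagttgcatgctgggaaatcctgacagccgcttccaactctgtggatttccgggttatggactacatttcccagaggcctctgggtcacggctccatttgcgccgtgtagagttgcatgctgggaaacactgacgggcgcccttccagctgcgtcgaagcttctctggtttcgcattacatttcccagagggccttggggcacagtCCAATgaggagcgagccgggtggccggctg
ZNF544: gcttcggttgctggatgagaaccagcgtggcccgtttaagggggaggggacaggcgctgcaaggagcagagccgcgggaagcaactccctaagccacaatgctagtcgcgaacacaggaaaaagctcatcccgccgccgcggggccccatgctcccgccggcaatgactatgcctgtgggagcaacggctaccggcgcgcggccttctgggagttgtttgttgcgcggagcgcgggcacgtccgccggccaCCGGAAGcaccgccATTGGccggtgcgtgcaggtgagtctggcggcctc
ZNF583: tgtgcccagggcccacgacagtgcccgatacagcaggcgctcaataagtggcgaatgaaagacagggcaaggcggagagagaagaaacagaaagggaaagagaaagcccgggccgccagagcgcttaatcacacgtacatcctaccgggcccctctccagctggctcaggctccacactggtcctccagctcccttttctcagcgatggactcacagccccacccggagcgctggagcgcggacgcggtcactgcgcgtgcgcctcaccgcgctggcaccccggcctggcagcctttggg
ZNF296: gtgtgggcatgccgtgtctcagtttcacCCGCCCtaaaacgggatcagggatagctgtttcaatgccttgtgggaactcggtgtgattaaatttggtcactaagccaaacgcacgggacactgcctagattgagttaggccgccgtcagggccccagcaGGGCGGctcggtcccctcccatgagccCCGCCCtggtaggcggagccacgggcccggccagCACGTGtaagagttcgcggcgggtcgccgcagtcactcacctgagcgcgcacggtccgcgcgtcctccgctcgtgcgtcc
ZNF146: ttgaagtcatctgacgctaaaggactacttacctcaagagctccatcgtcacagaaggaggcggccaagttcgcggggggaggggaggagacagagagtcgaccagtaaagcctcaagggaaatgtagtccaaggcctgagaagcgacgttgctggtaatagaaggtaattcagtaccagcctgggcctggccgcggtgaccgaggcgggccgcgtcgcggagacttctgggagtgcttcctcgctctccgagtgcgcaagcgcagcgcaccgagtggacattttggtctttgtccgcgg
ZNF331 carries a CCAAT match, ZNF544 a CCGGAAG match beside a CCAAT match on the other strand, and ZNF296 GGGCGG and CACGTG matches. The windows of ZNF583 and ZNF146 carry none of the motifs searched. Those of ZNF331, ZNF544 and ZNF583 begin inside the gene spans given below, so starts farther upstream were not searched. Across the family, 217 genes matched an entry in the promoter table, and 45.6% of their promoters held CCGGAAG, against 10.3% of all 35116 promoters there. GGGCGG was in 67.7% of the family's promoters and 45.0% of all, CCAAT in 53.9% and 34.6%, and TATAAA in 1.8% and 11.5%. GATGGCG was in 7.4% and 4.2%, TGACGT in 11.1% and 8.0%, and CACGTG in 4.1% and 7.3%. The promoters held a median of 20 CG pairs, against 14 in the whole table.

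Levels were low for most of these genes. The deposited FPKM values, which are per length and so allow genes to be compared, had a median of 3.78 over the 195 genes, with quartiles of 2.02 and 6.3. The other tested protein-coding genes had a median of 13. Of the 195, 73 averaged over 5 FPKM and 24 under 1. Genes with the KRAB pattern had a median of 3.66 FPKM and those without it 4.6. ZNF146, also called OZF and built of little but fingers, stood far above the rest at 75.2 FPKM. It averaged 79.9 ± 11.7 FPKM in E5 cells with FOLFIRINOX, 35.9 ± 7.76 in E5 cells with vehicle, 126 ± 26.1 in control cells with FOLFIRINOX and 59.2 ± 2.63 in control cells with vehicle (SD, n = 3 each). Next came ZNF561 at 27.4 FPKM, ZNF317 at 24.5, ZNF562 at 19.3, ZNF226 at 18.9 and ZNF428 at 17.8. ZNF121, ZNF507, ZNF875 and ZNF45 followed at 15.1, 13.9, 13.7 and 13.2 FPKM. Of those 10, ZNF562 and ZNF45 passed the test in none of the comparisons below.

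Silent and near-silent genes were unevenly placed. Runs of members with less than 1 Mb between neighbours gave 16 blocks, numbered here from the short-arm end. Block 5, from 19.7 to 24.1 Mb next to the centromere, held 37 genes, of which 22 stayed under 10 reads and 9 had none. Block 12, from 43.5 to 45.1 Mb, held 24 genes and all of them had 10 or more. ZNF43 in block 5, ZNF667, whose promoter is often methylated in tumours, and ZNF536, a regulator of neuronal differentiation, had no read in any library. A count of 0 over the 12 libraries allows a level of up to 0.0169 CPM (counts per 1000000 reads of a library size scaled by the TMM method), for counting error only. ZNF154, another gene often methylated in tumours, had 7 reads in all. For ZNF177 the 2 deposited tables differed. It had 1 read in the count table but FPKM values of 6.75 ± 1.02 in E5 cells with FOLFIRINOX, 3.42 ± 0.525 in E5 cells with vehicle, 7.63 ± 0.743 in control cells with FOLFIRINOX and 4.45 ± 0.402 in control cells with vehicle (SD, n = 3 each). A readthrough gene, ZNF559-ZNF177, covers the same exons. No other gene under 10 reads reached 0.5 FPKM.

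Of the 195, 180 passed edgeR's filter on low counts and were tested, and the other 15 had 10 to 83 reads each. Several of those 15 had most of their reads in control cells with FOLFIRINOX. ZNF793 had 0 reads in E5 cells with FOLFIRINOX, 0 in E5 cells with vehicle, 17 in control cells with FOLFIRINOX and 1 in control cells with vehicle. ZNF569 had 18 of its 20 reads in control cells with FOLFIRINOX, and ZNF175, which has been described as a repressor of HIV transcription, had 13 of 15 there. ZNF568 had 36 of 62 there and ZNF253 27 of 42. These genes carry no test, and the filter kept the tested genes partly by their level, so no count below covers all members.

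The libraries held 7359034 to 21775030 reads assigned to genes, and these genes took 0.228 to 0.426% of them. Control FOLFIRINOX replicate 2 stood apart from its group, with a chi-square per gene of 7.29 and 13.59 against the other 2, which differed by 1.46. E5 FOLFIRINOX replicate 3 was also apart, at 11.88 and 6.5 against the other 2, which differed by 3.71. Control vehicle replicates 2 and 3 differed by 8.73. The statistic grows with depth, and control FOLFIRINOX replicate 1 had the fewest reads, 7359034. Of the epithelial markers, KRT18 had group means of 171 to 622 CPM but EPCAM 0.291 to 1.2 and CDH1 0.304 to 1.92, whereas VIM, a mesenchymal marker, had 2000 to 2870. Of 13 markers of cells that the culture should lack, 4 were at 0 in all libraries. Their summed level was 11.3 to 12.5 CPM in E5 cells with FOLFIRINOX, 21 to 22.6 in E5 cells with vehicle, 13.7 to 17.4 in control cells with FOLFIRINOX and 53.5 to 58.8 in control cells with vehicle. Of the 5 that were tested, PTPRC, the leukocyte gene CD45, averaged 0.0345 CPM in E5 cells with FOLFIRINOX, 0.0656 in E5 cells with vehicle, 11.4 in control cells with FOLFIRINOX and 51.9 in control cells with vehicle. CDH5 and COL1A1 went the other way. CDH5, an endothelial gene, averaged 1.17 CPM in E5 cells with FOLFIRINOX, 5.55 in E5 cells with vehicle, 0.0496 in control cells with FOLFIRINOX and 0.153 in control cells with vehicle. COL1A1, a collagen gene, averaged 9.47 CPM in E5 cells with FOLFIRINOX, 15.5 in E5 cells with vehicle, 2.66 in control cells with FOLFIRINOX and 3.84 in control cells with vehicle. PECAM1 and PDGFRB had group means under 1 CPM. With vehicle, 5 of the 7 epithelial markers were higher in E5 than in control cells by log2 values over 1 (KRT8 2.91, KRT7 2.53, KRT19 2.01, KRT18 1.63 and MUC1 1.36), and CDH1 was higher at 0.70. EPCAM was at -0.95 and not called. Of the mesenchymal markers FN1 was at 2.12, VIM at 0.22, ZEB1 at -0.56 and CDH2 at -0.93. The part of these differences in the results below was not tested.

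**Figure D1:**
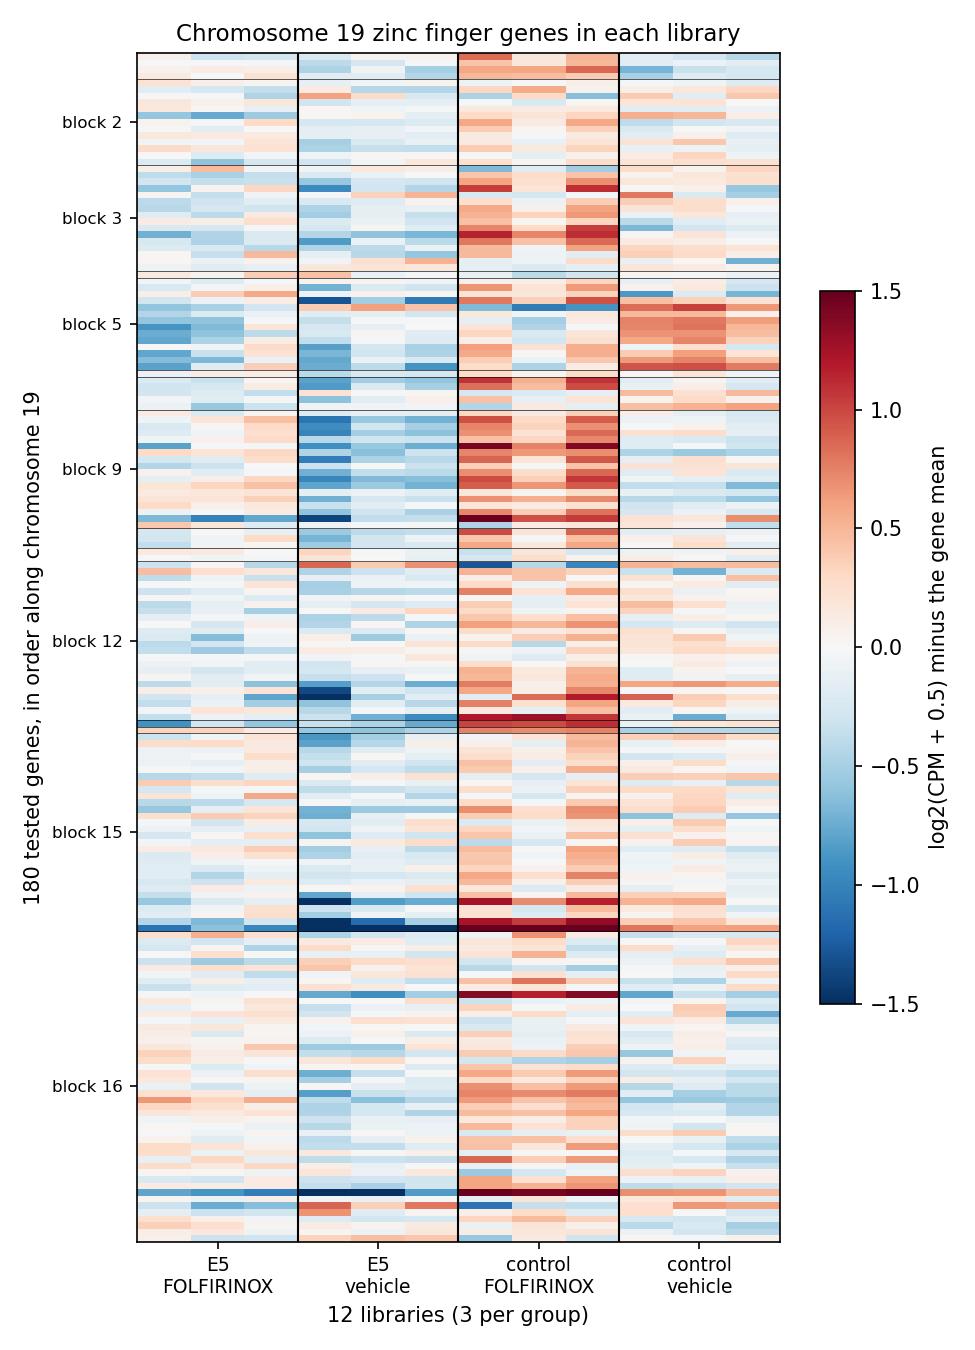
Each row is 1 of the 180 tested genes in order along chromosome 19 and each column 1 of the 12 libraries; colour gives log2(CPM + 0.5) minus the gene's mean, and horizontal lines separate blocks. The control FOLFIRINOX columns are mostly red, with the middle library paler, and the E5 vehicle columns are mostly blue.

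Summed over the family, the level was highest in control cells with FOLFIRINOX. The sums were 2904, 2949 and 3203 CPM in E5 cells with FOLFIRINOX and 2369, 2633 and 2639 CPM in E5 cells with vehicle. They were 3960, 3308 and 4058 CPM in control cells with FOLFIRINOX and 3028, 3194 and 2831 CPM in control cells with vehicle. Within each kind of cell, every FOLFIRINOX library lay above every vehicle library. ZNF146 alone supplied 216 to 309 CPM of the sum in E5 cells with FOLFIRINOX and 279 to 439 CPM in control cells with FOLFIRINOX. In bulk libraries, fewer cells that express a gene and less of its RNA per cell cannot be told apart.

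In control cells, FOLFIRINOX raised more of these genes than it lowered. Of the 180 tested, 86 rose and 20 fell (edgeR's quasi-likelihood test, Benjamini-Hochberg adjusted p under 0.05 over all 15636 tested genes), while 32.6% of all tested genes were higher and 32.7% lower. The share of these genes called either way was thus near the 65.3% of all tested genes, and the split between directions was not. Their median log2 fold change was 0.26, against 0.00 over all tested genes. Other protein-coding genes of chromosome 19 went the other way, with 168 higher and 294 lower of 706 and a median of -0.17. Numbered zinc finger genes on other chromosomes had 110 higher and 42 lower of 225 and a median of 0.23. Genes with the KRAB pattern had 77 higher and 16 lower of 148 (median 0.32), and those without it 9 and 4 of 32 (median 0.08).

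The largest rise was that of ZNF296 (chr19:45071500-45076587, minus strand), which has no KRAB match. It had 3.99, 4.27 and 3.62 CPM in control cells with FOLFIRINOX, against 1.33, 0.668 and 1.26 CPM in control cells with vehicle. The groups did not overlap, and the log2 fold change was 1.95 ± 0.23 (SE, adjusted p = 1.3e-06). ZNF583, a KRAB gene with 12 fingers (chr19:56397966-56436035, plus strand), had 29.1, 25 and 29 CPM with FOLFIRINOX and 6.12, 8.5 and 7.5 CPM with vehicle. All 3 treated libraries were far above all 3 vehicle libraries (1.86 ± 0.12, adjusted p = 7.2e-10). ZNF382, which has been described as a tumour suppressor silenced by methylation, had 4.76, 2.78 and 4.63 CPM with FOLFIRINOX and 1.22, 1.43 and 1.09 CPM with vehicle, a rise of 1.62 ± 0.27 (adjusted p = 5.9e-05). ZNF331, an imprinted KRAB gene with 12 fingers (chr19:53519527-53580269, plus strand), had 6.04, 5.36 and 6.8 CPM with FOLFIRINOX and 2.56, 2.15 and 2.17 CPM with vehicle, again without overlap (1.43 ± 0.17, adjusted p = 1.4e-06). ZNF585A, ZNF114, ZNF461 and ZNF473 completed the 8 largest rises, at log2 fold changes of 1.32, 1.31, 1.23 and 1.20. ZNF473, known as ZFP100 from histone pre-mRNA processing, had the smallest SE of the 8, with 42.1, 41.2 and 42.1 CPM with FOLFIRINOX and 17.7, 18.4 and 18.4 CPM with vehicle.

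Fewer genes fell in control cells, but some fell far. ZNF575 had 0.129, 0.645 and 0.279 CPM with FOLFIRINOX and 1.67, 1.62 and 1.6 CPM with vehicle (log2 fold change -1.96 ± 0.35, adjusted p = 1.0e-04). ZNF497 had 0, 0.347 and 0.334 CPM with FOLFIRINOX and 0.778, 1.19 and 1.14 CPM with vehicle (-1.92 ± 0.43, adjusted p = 8.8e-04), and its call was lost on log2(FPKM + 1) values, where the difference was -0.25. Neither has a KRAB match. ZNF737, a KRAB gene of block 5 (chr19:20535825-20565809, minus strand), had 4.89, 3.62 and 4.13 CPM with FOLFIRINOX and 14.7, 16.9 and 12.9 CPM with vehicle, with the groups far apart (-1.87 ± 0.14, adjusted p = 6.6e-09). Its neighbours ZNF254, ZNF708 and ZNF493 fell too, at -0.99, -0.92 and -0.86, and so did ZNF792 and ZNF653 at -0.78 and -0.70, which completed the 8 largest falls. Calls were lost on log2(FPKM + 1) and log2(FPKM + 0.1) values for ZNF493, at -0.36 and -0.49, and ZNF792, at -0.20 and -0.59. For ZNF254 the call was lost on log2(FPKM + 0.1) alone, at -0.78.

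Members with known targets took different courses in control cells. ZNF274, which binds zinc finger genes themselves and recruits SETDB1 there, had 41.9, 39.7 and 43.8 CPM with FOLFIRINOX and 21, 21.7 and 22.4 CPM with vehicle. The groups did not overlap (0.94 ± 0.075, adjusted p = 1.2e-08). ZNF528 rose by 0.98 ± 0.19, ZNF671 by 0.49 ± 0.14, ZNF419 by 0.47 ± 0.11 and ZNF317 by 0.28 ± 0.070. ZNF417, which together with ZNF587 represses HERV-K proviruses, fell (-0.50 ± 0.12, adjusted p = 0.002). ZNF587 itself was at 0.11 ± 0.088 (adjusted p = 0.29). The 2 genes are near-identical copies, and reads that map to both were not counted, so both values are uncertain. ZNF91, the repressor of SVA elements, was at -0.04 ± 0.20 and ZNF93, the repressor of L1 elements, at 0.41 ± 0.19 (adjusted p = 0.87 and 0.067). ZNF224, ZNF649, ZNF765 and ZNF808, the last known from pancreas development, had values of -0.22, 0.18, 0.11 and -0.20 and did not pass the test.

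In E5 cells the drug moved fewer of these genes, again mostly upward. Of the 180, 49 rose (27.2%) and 15 fell (8.33%), while 25.0% of all tested genes were higher and 27.3% lower. In all, 35.6% of the 180 were called, against 52.3% of all tested genes. The share that rose was thus near that of all tested genes, and the share that fell was below it. The median log2 fold change was 0.17, against 0.00 over all tested genes. The genes with the KRAB pattern had 41 higher and 10 lower of 148 and a median of 0.18, and those without it 8 and 5 of 32 and a median of 0.08. Zinc finger genes of other chromosomes had 77 higher and 28 lower of 225 (median 0.14), and other chromosome 19 genes 86 higher and 275 lower of 706 (median -0.20).

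ZNF331 had the highest fold change and the fewest reads behind it. It had 0.31, 0.641 and 0.386 CPM in E5 cells with FOLFIRINOX, against 0, 0.0629 and 0.0851 CPM in E5 cells with vehicle. These are 21 reads against 2, a ratio of 7.54 with an exact interval of 1.84 to 66.3 (95%, counting error only), and the fitted log2 fold change was 2.75 ± 0.69 (adjusted p = 0.0029). ZNF530 had 21.8, 17.3 and 20.5 CPM with FOLFIRINOX and 10.4, 8.74 and 10 CPM with vehicle, a rise of 1.05 ± 0.11 (adjusted p = 6.4e-07). ZNF585A followed with 22.1, 24.4 and 26.6 CPM with FOLFIRINOX and 11, 13.1 and 11.7 CPM with vehicle (1.01 ± 0.12, adjusted p = 2.0e-06). ZNF146 had 216, 260 and 309 CPM with FOLFIRINOX and 106, 152 and 138 CPM with vehicle, without overlap (0.98 ± 0.16, adjusted p = 6.5e-05). ZNF93 had 2.69, 3.13 and 3.67 CPM with FOLFIRINOX and 1.07, 2.2 and 1.36 CPM with vehicle (0.91 ± 0.26, adjusted p = 0.008), but the call was lost on log2(FPKM + 1) and log2(FPKM + 0.1) values, at 0.33 and 0.67. These 4 genes had no overlap between their groups in E5 cells. ZNF420, ZNF473 and ZNF461 rose by 0.85, 0.82 and 0.77. Of the genes with known targets, ZNF274 rose by 0.51 ± 0.078, ZNF528 by 0.59 ± 0.19, ZNF649 by 0.61 ± 0.23 and ZNF587 by 0.25 ± 0.087.

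The falls in E5 cells were led by genes that also fell in control cells. ZNF497 had 0.362, 0.142 and 0.193 CPM with FOLFIRINOX and 1.47, 0.88 and 1.36 CPM with vehicle (-2.23 ± 0.45, adjusted p = 5.7e-04). ZNF575 was at -1.19 ± 0.31 and ZNF737 at -1.01 ± 0.14, both without overlap between the groups. ZNF784, ZNF446, ZNF699, ZNF429 and ZNF225 followed at -0.82, -0.62, -0.61, -0.54 and -0.54. Of these, ZNF429 also fell in control cells, by 0.57 on the log2 scale, and its E5 call was lost without E5 vehicle replicate 2 or E5 FOLFIRINOX replicate 1, at -0.44 each. On log2(FPKM + 1) and log2(FPKM + 0.1) values the E5 calls were lost for ZNF429, at -0.11 and -0.17, and ZNF225, at -0.35 and -0.46. By contrast, ZNF784, ZNF446, ZNF699 and ZNF225 were not called in control cells, with values of -0.31, -0.19, -0.12 and -0.13.

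**Figure D2:**
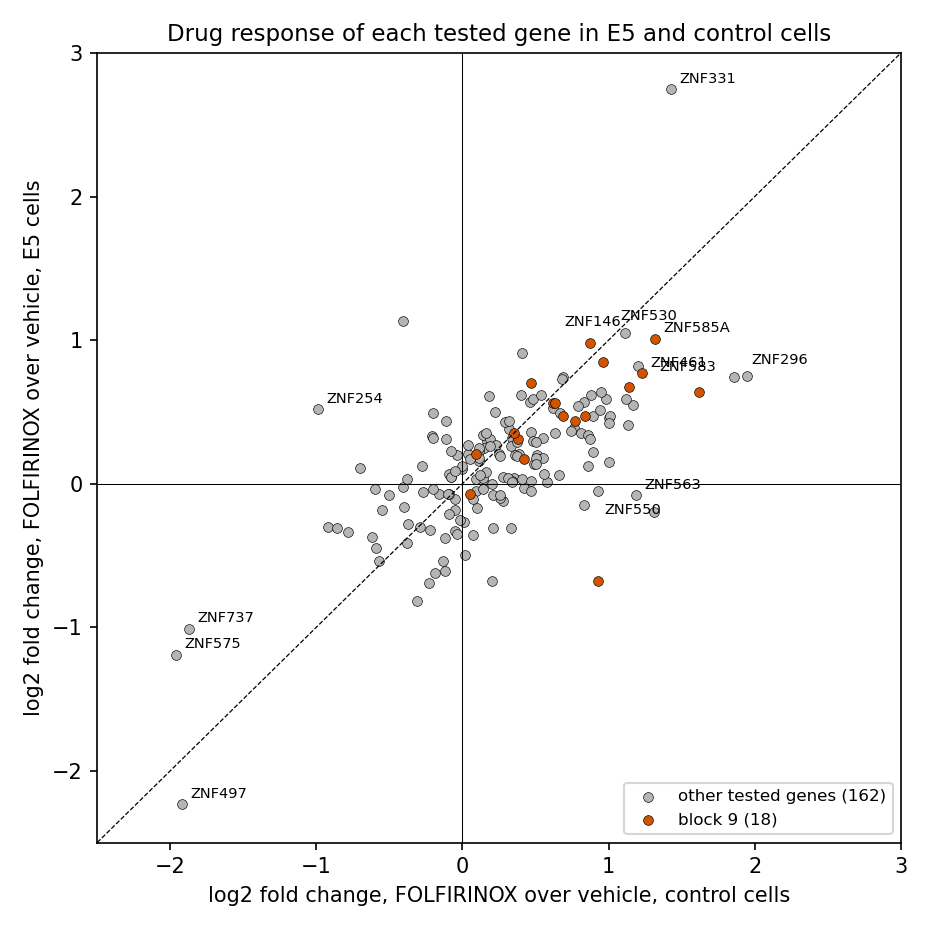
Each point is 1 tested gene, with its log2 fold change for FOLFIRINOX over vehicle in control cells on the horizontal axis and in E5 cells on the vertical axis; the dashed line marks equal values and orange marks block 9. ZNF331 lies highest, ZNF583 and ZNF296 lie to the right below the line, and ZNF254 lies in the upper left part.

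The drug responses of the 2 kinds of cell, which share no library, had a Pearson correlation of 0.66 and a Spearman correlation of 0.63 over the 180 genes, given as a description since the genes are not independent. Higher in both were 40 genes and lower in both 7. The correlations and the joint counts were not computed over all tested genes, so they are not shown to be particular to this family. Higher in E5 cells only were 9, and higher in control cells only 46, but a call in 1 kind of cell alone does not show a difference. The difference itself passed the test for 24 genes, with 6 more positive in E5 cells and 18 more negative, while 13.3% of all tested genes were more positive and 12.4% more negative (25.7% called in all). Of the 86 genes that rose in control cells, 17 had a called difference. The difference subtracts the control response by which those 86 were chosen, so this count does not show weaker E5 responses.

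ZNF583 was among the genes with a smaller response in E5 cells. It had 10.7, 10.3 and 10.9 CPM in E5 cells with FOLFIRINOX and 6.16, 5.53 and 7.49 CPM in E5 cells with vehicle, a rise of 0.74 ± 0.14, and the difference from the control response was -1.12 ± 0.18 (adjusted p = 3.4e-04), or -1.01 and not called on log2(FPKM + 0.1) values. ZNF550 had 12.4, 10.7 and 12.6 CPM in E5 cells with FOLFIRINOX and 13.5, 12.1 and 11.7 CPM in E5 cells with vehicle. In control cells it had 21.7, 18.3 and 21 CPM with FOLFIRINOX and 9.79, 11.6 and 9.96 CPM with vehicle, so that treated and vehicle libraries overlapped in E5 cells alone (difference -0.98 ± 0.15, adjusted p = 2.2e-04). ZNF563 was at -0.08 ± 0.24 in E5 cells and 1.19 ± 0.21 in control cells (difference -1.27 ± 0.32, adjusted p = 0.0085). ZNF554 and ZNF442 had differences of -0.98 ± 0.24 and -0.85 ± 0.27, and the call for ZNF442 was lost when any 1 of 8 libraries was left out, at -0.86 to -0.69, and on both FPKM scales, at -0.60 and -0.78. ZNF461, ZNF473, ZNF274 and ZNF419 rose in control cells and had differences of -0.47, -0.37, -0.44 and -0.51.

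The differences with a positive sign were led by ZNF254. It had 3.57, 5.77 and 8.63 CPM in E5 cells with FOLFIRINOX and 3.75, 4.9 and 3.32 CPM in E5 cells with vehicle. In control cells it had 8.1, 4.66 and 7.25 CPM with FOLFIRINOX and 13.1, 13.4 and 11.7 CPM with vehicle. The control groups were apart and the E5 groups overlapped, and the difference was 1.51 ± 0.36 (adjusted p = 0.0061), or 0.79 and 1.15 and not called on log2(FPKM + 1) and log2(FPKM + 0.1) values. ZNF558, a KRAB gene of block 2, went opposite ways. It had 48.1, 45.1 and 48.2 CPM in E5 cells with FOLFIRINOX and 34.7, 38.4 and 39 CPM in E5 cells with vehicle, a rise of 0.33 ± 0.084. In control cells it had 41.7, 36.3 and 43.5 CPM with FOLFIRINOX and 48.3, 49.4 and 42.9 CPM with vehicle, lower at -0.21 ± 0.083 though the groups overlapped (difference 0.54 ± 0.12, adjusted p = 0.003). That difference was not called on either FPKM scale, at 0.32 and 0.35. ZNF627, chosen after its values were seen as the only other gene with opposite calls, was at -0.31 in E5 cells and 0.21 in control cells. ZNF653 and ZNF772 had differences of 0.81 and 0.55, and the calls were lost when any 1 of 8 libraries was left out for ZNF653, at 0.64 to 0.87, and any 1 of 4 for ZNF772, at 0.41 to 0.52. Both calls were also lost on both FPKM scales, at 0.45 and 0.63 for ZNF653 and 0.37 and 0.49 for ZNF772, and that for ZNF653 with DESeq2, total counts and upper-quartile scaling, at 0.84, 0.74 and 0.79. The difference for ZNF737 was 0.86 ± 0.20 on counts but -0.14 on log2(FPKM + 1), so its direction depended on the deposited table used.

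Without the drug, these genes were lower in E5 cells far more often than higher. Of the 180, 4 were higher and 56 lower in E5 than in control cells with vehicle, while 22.1% of all tested genes were higher and 22.2% lower (44.3% called in all). The median was -0.16, against -0.01 over all tested genes. Genes with the KRAB pattern had 4 higher and 49 lower of 148 (median -0.21), and those without it 0 and 7 of 32 (median 0.02). Zinc finger genes of other chromosomes had 25 higher and 77 lower of 225 (median -0.12), and other chromosome 19 genes 131 and 116 of 706 (median 0.02). The count of calls was 32 on log2(FPKM + 1) values, with 31 of them lower.

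ZNF331 was close to undetected in E5 cells with vehicle. Its 0, 0.0629 and 0.0851 CPM there stood against 2.56, 2.15 and 2.17 CPM in control cells with vehicle. The 2 reads against 106 put it 39.3-fold lower, with an exact interval of 10.6 to 328 (95%, counting error only), and the fitted value was -5.11 ± 0.47 (adjusted p = 1.1e-07). ZNF544, a KRAB gene with 12 fingers near the end of the long arm (chr19:58228594-58277495, plus strand), had 0.67, 0.754 and 1.62 CPM in E5 cells and 5.67, 5.59 and 4.81 CPM in control cells. The groups were far apart (-2.37 ± 0.25, adjusted p = 6.7e-07). ZNF254 was lower by a log2 value of -1.63 ± 0.26 (adjusted p = 6.0e-05). ZNF607, ZNF285 and ZNF233 were at -1.58, -1.57 and -1.53, each with 1 CPM or little more in E5 cells, and the call for ZNF607 was lost without control vehicle replicate 3, at -1.27, and on both FPKM scales, at -0.13 on log2(FPKM + 1) and -0.59 on log2(FPKM + 0.1). The call for ZNF285 was lost without E5 vehicle replicate 1, at -1.22, E5 vehicle replicate 2, at -1.62, or control vehicle replicate 1, at -1.39. ZNF813 had 0.937, 1.38 and 2.47 CPM in E5 cells and 4.89, 5.06 and 4.23 CPM in control cells (-1.51 ± 0.23, adjusted p = 5.0e-05). ZNF525 had 1.47, 3.02 and 3.23 CPM in E5 cells and 8.56, 8.88 and 5.78 CPM in control cells (-1.49 ± 0.25, adjusted p = 1.1e-04).

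ZNF91 and ZNF93, the repressors of SVA and L1 elements, were lower in E5 cells. Of the HERV-K repressors ZNF417 and ZNF587, the latter was called higher in E5 cells under FOLFIRINOX on counts, with the opposite sign on FPKM values. ZNF93 had 1.07, 2.2 and 1.36 CPM in E5 cells with vehicle and 4.78, 4.44 and 4.01 CPM in control cells with vehicle (-1.39 ± 0.25, adjusted p = 2.4e-04). ZNF91, with 31 fingers, had 11.4, 15.1 and 13.4 CPM in E5 cells and 24.5, 28.9 and 21.5 CPM in control cells (-0.88 ± 0.21, adjusted p = 0.0027). Neither pair of groups overlapped. ZNF146 was at -0.65 ± 0.16, also called and without overlap. The 4 genes that were higher in E5 cells were ZNF490 and ZNF506 at 0.57 each, ZNF324B at 0.51 and ZNF324 at 0.34, and without control vehicle replicate 3 none of the 4 passed the test, at 0.33, 0.46, 0.43 and 0.26. On log2(FPKM + 1) values the calls for ZNF490, ZNF324B and ZNF324 were lost too, at 0.40, 0.04 and 0.11, and on log2(FPKM + 0.1) values at 0.57, 0.08 and 0.15. Those for ZNF490 and ZNF324 were lost with the replicate block, at 0.57 and 0.34, and with the GC correction, at 0.48 and 0.25. That for ZNF324 was lost with DESeq2 and with no filter as well, at 0.34 each, and on the deposited log2 values, at 0.19. ZNF274, ZNF473, ZNF583 and ZNF461, which all rose with the drug, were at -0.04, -0.10, -0.25 and 0.04 and did not pass the test.

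Under FOLFIRINOX the median gap between E5 and control cells was wider than with vehicle. Of the 180, 9 were higher and 88 lower in E5 cells, while 26.7% of all tested genes were higher and 27.6% lower (54.3% called in all). The median was -0.32, against -0.01 over all tested genes. A wider gap in a single gene is what the test of the difference of drug responses measures. Its median was -0.12, and 10.0% of the 180 passed as more negative in E5 cells, against 12.4% of all tested genes. Lower in E5 cells under both treatments were 38 genes, and higher under both were 0. The same joint counts were not made over all tested genes, so whether they are particular to this family is not known. The 2 comparisons share no library. Genes with the KRAB pattern had 6 higher and 78 lower of 148 (median -0.35), and those without it 3 and 10 of 32 (median -0.18). Zinc finger genes of other chromosomes had 21 higher and 95 lower of 225 (median -0.24), and other chromosome 19 genes 185 and 181 of 706 (median 0.00).

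ZNF331 again led, with 0.31, 0.641 and 0.386 CPM in E5 cells with FOLFIRINOX and 6.04, 5.36 and 6.8 CPM in control cells with FOLFIRINOX (-3.79 ± 0.23, adjusted p = 5.5e-10). ZNF607 had 0.31, 0.142 and 0.257 CPM in E5 cells and 3.09, 2.03 and 2.17 CPM in control cells (-3.19 ± 0.41, adjusted p = 4.5e-06). ZNF544 had 1.71, 1.57 and 1.35 CPM in E5 cells and 12, 9.82 and 13.3 CPM in control cells (-2.90 ± 0.19, adjusted p = 1.2e-09). In all 3 genes every E5 library lay below every control library by a wide margin, while ZNF274 and ZNF8, the tested neighbours just before ZNF544, were at -0.48 and -0.01. ZNF114 had 0.103, 0.427 and 0.257 CPM in E5 cells and 1.8, 1.74 and 1.95 CPM in control cells (-2.85 ± 0.34, adjusted p = 2.2e-06). ZNF813, ZNF382, ZNF285 and ZNF296 completed the 8 lowest, at -1.83, -1.80, -1.78 and -1.71. ZNF583 was at -1.37 ± 0.11, ZNF91 at -0.65 ± 0.20, ZNF93 at -0.89 ± 0.20, ZNF274 at -0.48 ± 0.073 and ZNF473 at -0.47 ± 0.074, all called. ZNF225 and ZNF146 were at -0.56 and -0.54, with the groups overlapping for ZNF146 alone of the 2.

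Higher in E5 cells under FOLFIRINOX were ZNF653 at 0.67, ZNF580 at 0.62, ZNF772 at 0.58, ZNF333 at 0.52, ZNF737 at 0.49, ZNF587 at 0.31, ZNF264 and ZNF841 at 0.29 each, and ZNF558 at 0.22. ZNF580 had 12.5, 13.8 and 13.3 CPM in E5 cells and 8.49, 9.23 and 7.86 CPM in control cells, without overlap (adjusted p = 1.4e-04). ZNF772 had 15.5, 13.6 and 12.7 CPM in E5 cells and 10.4, 9.18 and 8.86 CPM in control cells (adjusted p = 7.2e-04). The values of ZNF737, ZNF587 and ZNF264 had the opposite sign on both FPKM scales. There the calls for ZNF653, ZNF772, ZNF333 and ZNF841 were lost, at 0.39, 0.30, 0.18 and 0.09 on log2(FPKM + 1) and 0.55, 0.40, 0.25 and 0.10 on log2(FPKM + 0.1). The call for ZNF737 was lost without control FOLFIRINOX replicate 2, at 0.40, or E5 FOLFIRINOX replicate 3, at 0.41. That for ZNF264 was lost without control FOLFIRINOX replicate 1, at 0.24, or E5 FOLFIRINOX replicate 3, at 0.27. That for ZNF841 was lost without control FOLFIRINOX replicate 2, at 0.20, or E5 FOLFIRINOX replicate 1, at 0.26.

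**Figure D3:**
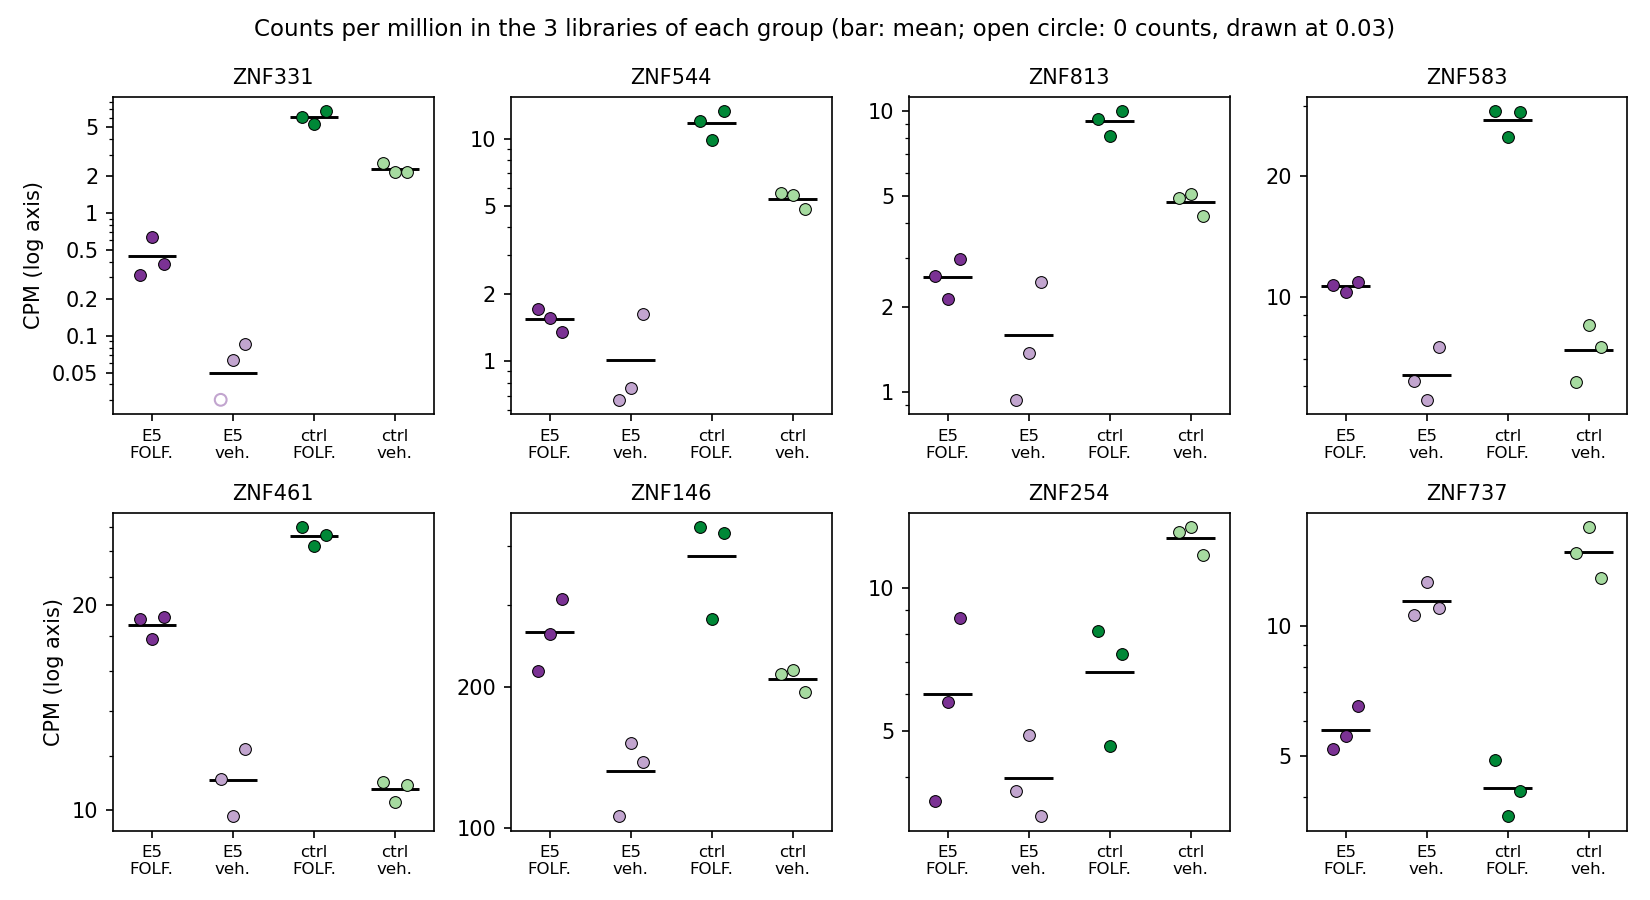
Each panel shows 1 gene, with CPM on a log axis for the 3 libraries of each of the 4 groups; bars are group means and an open circle is a library with 0 counts. ZNF331, ZNF544 and ZNF813 are lowest in E5 cells under both treatments, ZNF583, ZNF461 and ZNF146 are higher with FOLFIRINOX in both kinds of cell, and ZNF737 is lower with it in both.

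The responses were unevenly placed along the chromosome. Block 9, from 36.2 to 37.8 Mb, held 27 of these genes, of which 18 were tested. In E5 cells 12 of the 18 rose with FOLFIRINOX and 0 fell (median 0.51), or 66.7% against the 25.0% of all tested genes. In control cells 16 rose and 0 fell (median 0.73), or 88.9% against 32.6%. The 2 not called in control cells were ZNF790 at 0.05 and ZNF573 at 0.09, named after their values were seen. ZNF461 in this block had 19.1, 17.8 and 19.2 CPM in E5 cells with FOLFIRINOX and 11.1, 9.81 and 12.3 CPM in E5 cells with vehicle. In control cells it had 26, 24.4 and 25.3 CPM with FOLFIRINOX and 11, 10.3 and 10.9 CPM with vehicle, and in neither kind of cell did the groups overlap. ZNF420 had 16.9, 19.9 and 23.2 CPM in E5 cells with FOLFIRINOX and 9.24, 11.6 and 11.8 CPM in E5 cells with vehicle, and 37.3, 24.1 and 39.5 CPM in control cells with FOLFIRINOX and 17.9, 17 and 16.5 CPM in control cells with vehicle. ZNF585A and its near-copy ZNF585B were at 1.01 and 0.31 in E5 cells and 1.32 and 0.38 in control cells. Reads that map to both copies were not counted. ZNF260, ZNF566 and ZNF567 were at 0.70, 0.56 and 0.56 in E5 cells and 0.47, 0.62 and 0.63 in control cells. ZNF875 was at 0.35 in both.

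The block 9 genes were also lower in E5 cells, with 0 higher and 14 lower (77.8%) of 18 under FOLFIRINOX (median -0.53). With vehicle 0 were higher and 7 lower (38.9%, median -0.33). Of all tested genes, 27.6% were lower under FOLFIRINOX and 22.2% with vehicle. Over the alternatives that kept 18 or 19 genes of block 9, those that rose in control cells numbered 13 to 17, with 0 falling, and those that rose in E5 cells 9 to 13, with at most 1 falling. With no filter, 26 genes were tested, of which 18 rose in control cells and 13 in E5 cells. Without control FOLFIRINOX replicate 2 the control count was again 16. Neighbouring tested genes were only weakly alike over the whole chromosome, with a correlation of 0.28 for the control response over 179 pairs, 0.19 for the E5 response, 0.13 for E5 against control under FOLFIRINOX and 0.18 with vehicle. Promoters of the tested block 9 genes held CCGGAAG in 5 of 18 (27.8%) and GGGCGG in 6 (33.3%). These shares are below the 44.4% and 66.7% of the family's tested genes with a promoter entry.

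Block 5, the centromere-side cluster with ZNF91, ZNF93 and many silent genes, differed from that. With vehicle, 1 of its 14 tested genes was higher and 11 lower in E5 cells (median -0.74), or 78.6% lower against 22.2% of all tested genes, and under FOLFIRINOX 1 and 7 (median -0.36), or 50.0% lower against 27.6%. The drug raised 2 and lowered 2 of them in E5 cells (14.3% each), against 25.0 and 27.3% of all tested genes. In control cells it raised 4 (28.6%) and lowered 7 (50.0%), against 32.6 and 32.7%. The medians were -0.08 in E5 cells and -0.33 in control cells. ZNF708 had 7.29, 7.26 and 11 CPM in E5 cells with FOLFIRINOX, 8.71, 11.1 and 11.1 CPM in E5 cells with vehicle, 10.2, 7.74 and 12.3 CPM in control cells with FOLFIRINOX and 19.3, 19.8 and 17.7 CPM in control cells with vehicle. Control cells with vehicle thus stood above the other 3 groups, as they did for ZNF254, ZNF493 and ZNF429. ZNF506, in the same block, was the exception at 0.57 in E5 cells with vehicle. The 7 control falls of block 5 numbered 5 without control FOLFIRINOX replicate 2. On log2(FPKM + 1) and log2(FPKM + 0.1) values they numbered 3 and 2, and the control median of -0.33 turned to 0.05 and 0.06.

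In block 16, from 55.5 to 58.5 Mb and with 47 tested genes, 13 rose and 4 fell in E5 cells. The 13 are 27.7%, near the 25.0% of all tested genes. In control cells 23 rose (48.9%) and 5 fell (10.6%), against 32.6 and 32.7% of all tested genes. With vehicle 2 were higher and 2 lower in E5, or 4.26% each way against 22.1 and 22.2% of all tested genes. Block 15, from 51.6 to 53.6 Mb, had 0 higher and 12 lower of 30 (40.0%) in E5 cells with vehicle, among them ZNF331, ZNF813 and ZNF525. Under FOLFIRINOX ZNF525 and ZNF813 were at -1.43 and -1.83 in E5 against control cells, and ZNF765 and ZNF761, which lie between them, at -0.16 and -0.06 and not called. With vehicle the first pair was at -1.49 and -1.51 and the pair between them at -0.23 and -0.29, also not called. All 4 tested genes of block 1, ZNF554, ZNF555, ZNF57 and ZNF77 at 2.8 to 2.9 Mb, rose in control cells, and all 4 were lower in E5 cells under FOLFIRINOX. Of all tested genes, 32.6% rose in control cells and 27.6% were lower in E5 cells under FOLFIRINOX. In block 3, 1 rose (6.25%) and 2 fell (12.5%) of 16 in E5 cells, against 25.0 and 27.3% of all tested genes. In control cells 8 rose (50.0%) and 2 fell (12.5%), against 32.6 and 32.7%. In block 12, 2 rose (8.33%) and 3 fell (12.5%) of 24 in E5 cells. In control cells 8 rose (33.3%) and 1 fell (4.17%), so the rises were near the 32.6% of all tested genes. Between E5 and control cells block 12 had 0 higher and 14 lower (58.3%) under FOLFIRINOX, against 26.7 and 27.6% of all tested genes. With vehicle it had 0 higher and 5 lower (20.8%), against 22.1 and 22.2%, so the lower share was near that of all tested genes. In block 2, 5 rose (38.5%) and 1 fell (7.69%) of 13 in E5 cells. In control cells 4 rose (30.8%) and 1 fell (7.69%), and the rises were again near the 32.6% of all tested genes. E5 against control cells gave 1 higher (7.69%) and 5 lower (38.5%) under FOLFIRINOX and 0 and 5 (38.5%) with vehicle.

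**Figure D4:**
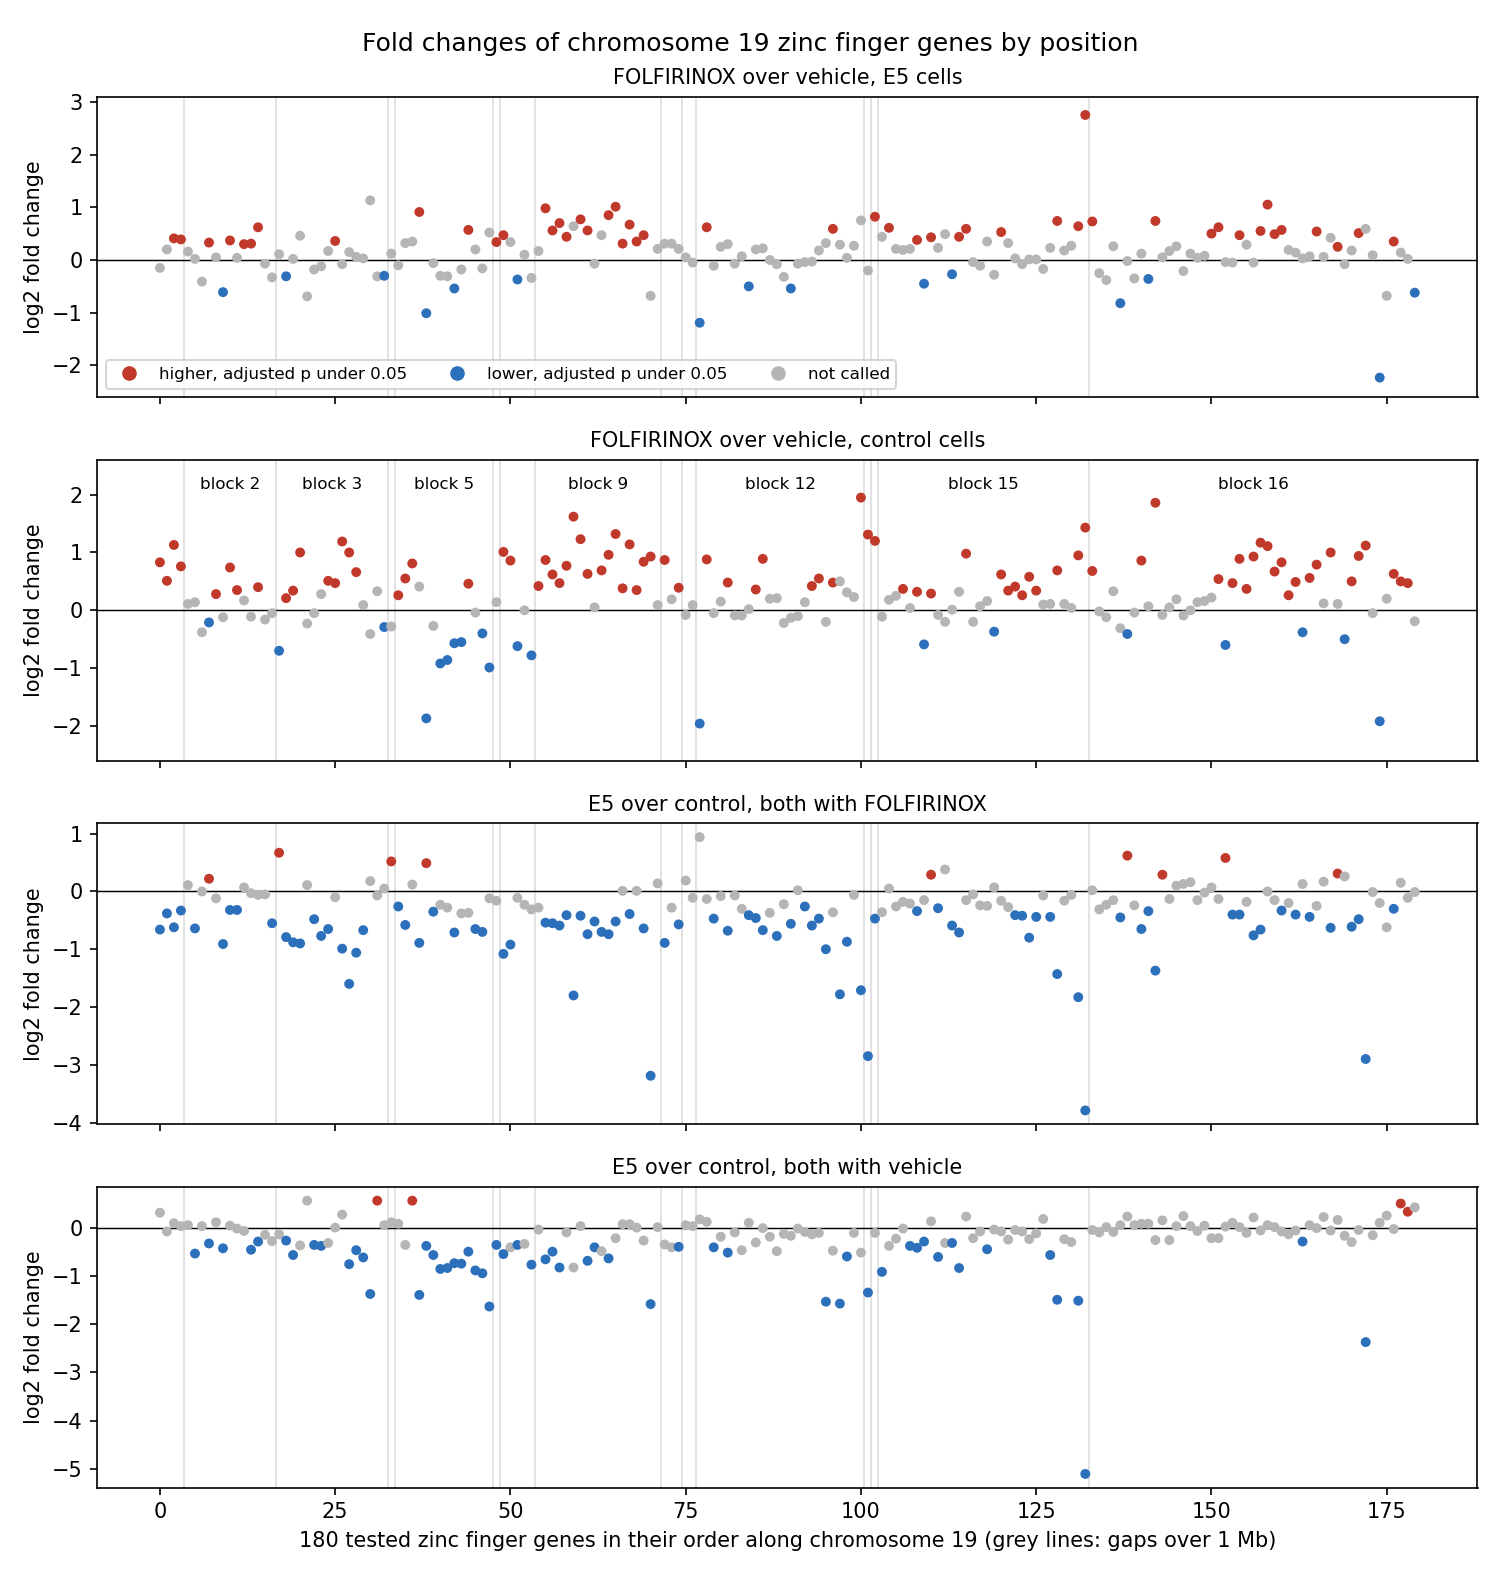
Log2 fold changes of the 180 tested genes in their order along chromosome 19, in 4 panels with different vertical scales; red and blue points passed the test and grey points did not. Block 9 is red or grey in both drug panels, and ZNF331 at the end of block 15 is the lowest point in both panels of E5 against control cells.

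**Figure D5:**
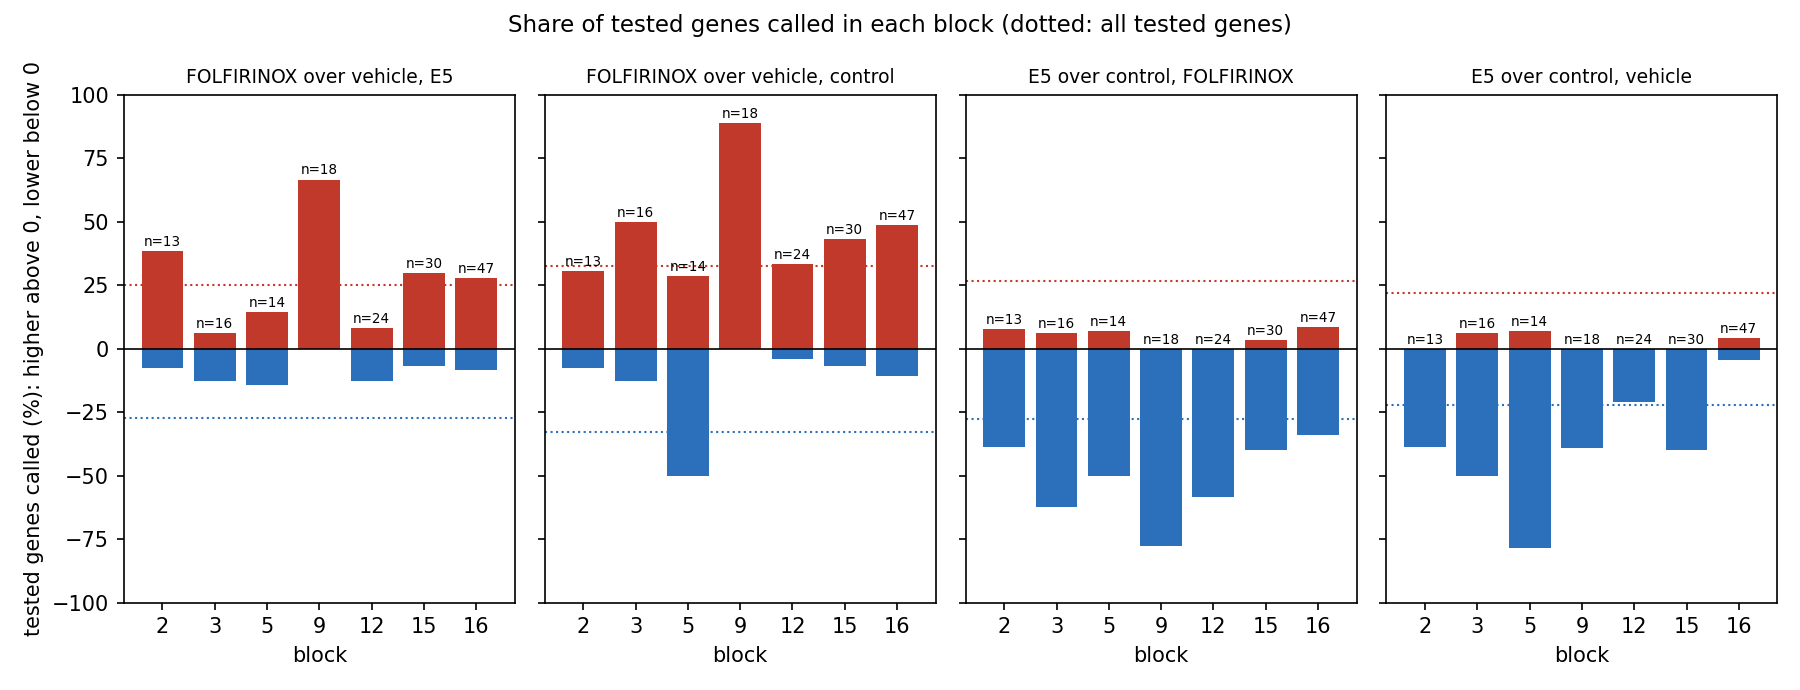
Bars give the percentage of tested genes called higher (above 0) or lower (below 0) in each block with 10 or more tested genes, with the number tested over each bar; dotted lines give the same over all 15636 tested genes. Block 9 has the tallest upward bars in both drug panels and block 5 the longest downward bar with vehicle.

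The number of fingers had a Spearman correlation of 0.09 with the E5 response and -0.03 with the control response over the 180 genes. Transcript GC content, a median of 42.6% in these genes and 47.8% over all tested genes, had one of 0.54 with the difference between E5 and control cells with vehicle and 0.27 with that under FOLFIRINOX, against 0.16 and 0.04 over all tested genes. With the drug response it was -0.23 in E5 cells and -0.02 in control cells, against -0.26 and -0.12 over all tested genes. With a correction for GC content, the calls with vehicle were 5 higher and 50 lower in E5, against 4 and 56 without it.

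In the edgeR fit, more of the partners that carry out the silencing fell than rose under the drug. Of 35 genes for KRAB-bound complexes and their chromatin, all tested, 6 rose and 13 fell in E5 cells (median -0.06), or 17.1 and 37.1%, against 25.0 and 27.3% of all tested genes. In control cells 4 rose and 21 fell (median -0.23), or 11.4 and 60.0%, against 32.6 and 32.7% of all tested genes. Of the tested protein-coding genes, 24.6% rose and 31.7% fell in E5 cells, and 30.9 and 37.5% in control cells. Over 23 settings, 4 to 11 partners rose and 8 to 16 fell in E5 cells, so these ranges overlapped. In control cells 3 to 10 rose and 13 to 24 fell over those settings. TRIM28, the shared corepressor, averaged 195 ± 14.1 CPM in E5 cells with FOLFIRINOX and 291 ± 18.3 in E5 cells with vehicle, against 176 ± 17.4 and 309 ± 18.4 CPM in control cells (SD, n = 3 each). It fell in both kinds of cell, with log2 fold changes of -0.57 ± 0.077 in E5 cells and -0.81 ± 0.078 in control cells. On the log2 scale SETDB1 fell by 0.36 in E5 cells and by 0.55 in control cells, and DNMT3A, a DNA methyltransferase, fell by 0.71 in E5 cells and by 0.79 in control cells. DAXX, a histone chaperone, rose by 0.30 in E5 cells and 0.37 in control cells, and CBX5, which encodes HP1 alpha, by 0.34 in E5 cells and 0.36 in control cells. Between E5 and control cells TRIM28 was at -0.09 with vehicle and 0.14 under FOLFIRINOX and did not pass the test. With vehicle, 1 of the 35 was higher (2.86%) and 19 lower (54.3%) in E5 cells, against 22.1 and 22.2% of all tested genes. The median was -0.20, with ATRX and RESF1 among the lower at -0.91 and -0.82. Under FOLFIRINOX 6 were higher (17.1%) and 11 lower (31.4%), against 26.7 and 27.6% of all tested genes. The lower share was thus near that of all tested genes. There the median was -0.11, and ATRX was at 0.26 and not called (adjusted p = 0.44).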

How the data were processed

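The members, gene lists and tests were chosen with earlier results of these data known. RNA was extracted with RNeasy and libraries were made with KAPA mRNA HyperPrep, per the labels' protocols. Reads were trimmed with Trimmomatic and aligned with STAR 2.5.1b to GRCh38, per the submitters' processing notes. The authors deposited 3 tables: stranded raw counts per gene, FPKM values (per length and depth) and log2 values from a regularised log transform, as the deposited tables' names and values show. Each GEO sample has 3 numbered columns, taken as its libraries. The count table's summary lines, left out of library sizes, held 10.79 to 12.84% multimapping, 6.63 to 8.52% outside genes, 2.86 to 3.2% ambiguous and 1.47 to 1.7% unmapped reads. Multimapping reads were not counted, so genes with near-identical copies are uncertain.

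Counts were fitted with edgeR 4.0.16 (R 4.3.3) as 4 group means over all 12 libraries, with TMM scaling, filterByExpr, the quasi-likelihood F test and Benjamini-Hochberg adjustment at 0.05 over 15636 genes; the biological coefficient of variation was 7.37%. SE is the log2 fold change divided by the root of F. Alternatives were DESeq2 1.42.0, limma 3.58.1 on log2(FPKM + 1), log2(FPKM + 0.1) and the deposited log2 values, other scalings and filters, leaving out each library, a replicate block and a GC correction in 20 bins. Named genes were the 8 highest and 8 lowest called log2 fold changes per comparison (5 and 5 for the difference) among genes with at least 1 CPM in a group, the 10 highest in FPKM, and a list with known roles. Fingers, KRAB patterns and GC come from GENCODE 29 transcripts, promoters from RefSeq.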

Additional observations from a re-analysis of the deposited data

Results flagged for a closer look

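In 24 of the 180 tested genes the response to FOLFIRINOX differed between E5 and control cells by the test of the difference itself (edgeR's quasi-likelihood test, adjusted p under 0.05). The values below are log2 fold changes in E5 cells minus those in control cells. Of all tested genes, 25.7% passed the same test.

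In 18 genes the response was more negative in E5 cells. ZNF563 at -1.27 and ZNF583 at -1.12 were the most negative, followed by ZNF550 and ZNF554 at -0.98 each and ZNF442 at -0.85. ZNF787 was at -0.74, ZNF57 at -0.72, ZNF222 at -0.67, ZNF416 at -0.62, ZNF888 at -0.56 and ZNF627 at -0.53. ZNF419 was at -0.51, ZNF699 at -0.49, ZNF461 and ZNF383 at -0.47 each, ZNF227 at -0.46, ZNF274 at -0.44 and ZNF473 at -0.37. In 6 genes it was more positive in E5 cells. ZNF254 was at 1.51, ZNF737 at 0.86, ZNF653 at 0.81, ZNF772 at 0.55, ZNF558 at 0.54 and ZNF776 at 0.41. The value of ZNF737 was -0.14 on log2(FPKM + 1) and -0.24 on log2(FPKM + 0.1).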

How the results depend on the processing

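The count of tested members called was 64 for the drug in E5 cells, 106 for the drug in control cells, 60 for E5 against control with vehicle, 97 under FOLFIRINOX and 24 for the difference of responses. With vehicle it was 32 on log2(FPKM + 1) and 33 on log2(FPKM + 0.1). For the difference it was 14 on log2(FPKM + 0.1), 49 with the GC correction and 43 with the replicate block and GC correction. The control-response median was 0.45 on log2(FPKM + 0.1), where the median of all genes was 0.19. Total counts moved that all-gene median by 0.14, and log2(FPKM + 1) by 0.14. The causes were not tested.

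Leaving out single libraries gave 52 to 73 calls for the drug in E5 cells, 91 to 118 in control cells, 41 to 66 for E5 against control with vehicle, 87 to 108 under FOLFIRINOX, and 14 (without E5 vehicle replicate 2) to 44 (without control FOLFIRINOX replicate 2) for the difference. In the same order of comparisons the medians ranged over 0.13 to 0.19, 0.18 to 0.37, -0.19 to -0.12, -0.41 to -0.25 and -0.22 to -0.07.

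The split of calls moved for the E5 response with the GC correction (53 higher, 27 lower). For the difference it moved with total counts (4 and 30), log2(FPKM + 1) (0 and 20), log2(FPKM + 0.1) (0 and 14), no filter (10 and 14) and without E5 vehicle replicate 2 (5 and 9). Signs turned on log2(FPKM + 1) and log2(FPKM + 0.1) for E5 against control under FOLFIRINOX in ZNF737 (-0.26 and -0.38), ZNF587 (-0.07 and -0.08) and ZNF264 (-0.17 and -0.21), and for the difference in ZNF737 (-0.14 and -0.24). Of 1610 recomputed values of named genes, 1506 kept their direction and side of the threshold and 96 lost their call. With a replicate block the counts in that order were 61, 103, 55, 93 and 24. The sample labels carry no numbers, only the table columns do, and same-numbered libraries correlated by -0.157 to 0.134. Whether a number marks a shared batch is not known. Counts of a few reads limit ZNF331, ZNF607, ZNF114 and ZNF497. The counts per block and list under other settings were added after seeing the data.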
